A study of Mus musculus with 18 samples.

Results

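The 40 genes described here encode the enzymes and helpers of fatty acid beta-oxidation in mitochondria and peroxisomes. The rule that chose them goes by gene name and uses no measured value, although the list was drawn up with earlier results of these data known, and all 40 were found among the 19057 genes of the liver table. Of these, 16 act mainly in mitochondria, 17 act mainly in peroxisomes, and 7 act in both places or elsewhere (Acad11, Eci2, Ech1, Amacr, Crat, Acsl1 and Acsl5). Liver of male ICR mice was collected at 10 weeks of age from 6 groups with 3 libraries each. Con animals were the controls, and A10 animals received alginate oligosaccharide (AOS), a brown-seaweed product, at 10 mg/kg. HS animals were given a high fat diet and streptozotocin (STZ), a toxin of the insulin-producing beta cell, and HS+A10 animals had the same model together with AOS at 10 mg/kg. A10-FMT animals were HS mice that received gut microbiota of AOS-dosed donors (10 mg/kg), and Con-FMT animals were HS mice that received gut microbiota of control donors. All 4 groups of the HS kind therefore share the diet and STZ, which the design gives together and which cannot be told apart. The donor material was pooled by donor group, and the labels do not say whether each library is 1 animal, so p-values measure only the spread between these libraries.

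Beta-oxidation shortens an acyl chain by repeated cycles of dehydrogenation, hydration, a further dehydrogenation and thiolysis. Long-chain fatty acids enter mitochondria through the carnitine shuttle, and their electrons reach the respiratory chain through electron transfer flavoprotein. Peroxisomes take very long-chain, branched and dicarboxylic acids, shorten them without energy capture at the first step, and hand the products on as carnitine esters. In liver many of these genes are known targets of the fatty acid receptor PPAR alpha.

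The sequences of 4 upstream regions are shown as examples. They are taken from RefSeq and GENCODE positions on mouse build GRCm38. Hadha and Hadhb, the 2 subunits of the trifunctional protein, lie on opposite strands with 85 bases between their GENCODE gene ends, at chr5:30155163-30155247, while their RefSeq starts are 273 bases apart. Acadm (medium-chain acyl-CoA dehydrogenase) is shown at chr3:153944644-153944893 on the minus strand, Ehhadh (the peroxisomal bifunctional enzyme) at chr16:21787835-21788084 on the minus strand, and Phyh (phytanoyl-CoA hydroxylase) at chr2:4918746-4918995 on the plus strand. These 3 regions are the 250 bases before the annotated start, and capitals mark a match to the nuclear receptor motif AGGTCA or its reverse complement. The gap between Hadha and Hadhb is written on the plus strand.
Hadha and Hadhb, shared gap: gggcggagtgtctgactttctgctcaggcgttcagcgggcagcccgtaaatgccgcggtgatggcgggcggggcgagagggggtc
Acadm, upstream region: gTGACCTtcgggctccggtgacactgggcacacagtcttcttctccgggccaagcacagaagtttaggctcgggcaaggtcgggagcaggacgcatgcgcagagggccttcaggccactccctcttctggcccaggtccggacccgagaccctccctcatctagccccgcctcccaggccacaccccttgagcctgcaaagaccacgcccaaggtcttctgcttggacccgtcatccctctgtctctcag
Ehhadh, upstream region: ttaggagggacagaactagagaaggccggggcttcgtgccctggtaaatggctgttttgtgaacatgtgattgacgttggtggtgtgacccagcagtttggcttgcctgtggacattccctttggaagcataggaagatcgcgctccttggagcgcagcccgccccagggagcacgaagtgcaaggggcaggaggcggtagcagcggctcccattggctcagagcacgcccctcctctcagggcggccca
Phyh, upstream region: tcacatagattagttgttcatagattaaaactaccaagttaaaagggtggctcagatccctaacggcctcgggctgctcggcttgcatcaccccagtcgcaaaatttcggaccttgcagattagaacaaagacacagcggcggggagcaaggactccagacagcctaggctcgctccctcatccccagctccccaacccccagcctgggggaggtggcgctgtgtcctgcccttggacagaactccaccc
The motif AGGTCA was found on either strand in 5 of the 34 members with a RefSeq promoter (Acadm, Acadvl, Cpt1a, Echs1 and Scp2), or 14.7%, against 15.8% of 27025 genes with a promoter in all. A repeat of 2 copies of AGGNCA spaced by 1 base, which PPAR alpha can bind and which may itself hold AGGTCA, was in 0 of 34 against 0.4%. The NRF1 motif (GCGC, an A, any base and GCGC) was in 4 of 34 (Abcd3, Etfb, Etfdh and Nudt7), or 11.8%, against 4.23%. The clock motifs TTANGTAA and CACGTG were in 0 of 34 each, against 2.44% and 6.86%. These matches describe letters in a short window and are not binding sites, and an absent match says nothing about the factor. The members not matched were Abcd2, Acaa2, Amacr, Crat, Decr1 and Hsd17b4.

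Levels were RPKM as deposited, read numbers scaled to transcript length and to library size. Differences are log2(RPKM + 1) fitted with limma over the 10204 genes whose mean reached 1 RPKM, and a gene was called where its Benjamini-Hochberg adjusted p was under 0.05. RPKM summed to between 692818 and 806937 per library, and read depth is unknown. The 12 hepatocyte markers summed to 44200 to 63300 RPKM, and none was at 0 in all 3 libraries of a group. In tissue samples fewer cells of a type and less RNA per cell cannot be told apart. Several libraries stood apart. Con replicate 3 lay between the other Con libraries in 90.9% of the 1026 genes where those differed at least 1.5-fold, and in 36 of 40 members, and A10 replicate 3 did so in 90.6% of 743 genes and 23 of 40 members. In the other 16 libraries this share was 34.4% to 71.7%, so the spread within Con and A10 may be understated. All 6 groups share 1 estimate of the spread in the fit, so this touches the p-values of every comparison. Counts without both libraries are given below for HS, A10-FMT and Con-FMT against Con and for HS+A10 against A10. Within groups the members tended to be high or low together. Con replicate 1 was the lowest Con library for 39 of 40 members and Con replicate 2 the highest for 36, HS replicate 1 was the highest HS library for 33 and HS replicate 3 the lowest for 32. A10-FMT replicate 1 was the highest of its group for 33 and replicate 3 the lowest for 30, and Con-FMT replicate 2 was the lowest for 32. Con-FMT replicate 3 held 15 pancreatic acinar markers at 2.87% of its RPKM, against at most 0.00672% in every other library.

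Most of the pathway was higher in HS than in Con. Of the 39 members tested, 23 were higher in HS than in Con and 0 lower, against 15.9% (higher) and 1.87% (lower) of all tested genes. The libraries of the groups did not overlap for 22 members, all higher in HS, against 32.6% of all tested genes higher and 4.17% lower without overlap. The called members included Cpt1a, the gate of the mitochondrial pathway, Hadha and Hadhb, 4 mitochondrial acyl-CoA dehydrogenases, the peroxisomal carnitine octanoyltransferase Crot, and Phyh of alpha-oxidation. The median member change was 0.54, against 0.14 over all tested genes, which is 0.40 after subtraction of that common shift. The scaling changed the count, and after each library was scaled to an equal median, 11 members were called higher and 1 lower (Acsl5), and the split of all called genes moved from 89.4% higher to 45% higher. Without Con replicate 1 the count was 13, without Con replicate 3 it was 15, without Con replicate 3 and A10 replicate 3 it was 13, and without HS replicate 1 it was 15. Called in every setting run were Cpt1a, Cpt2, Acad11, Hadhb, Amacr and Phyh.

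**Figure D1:**
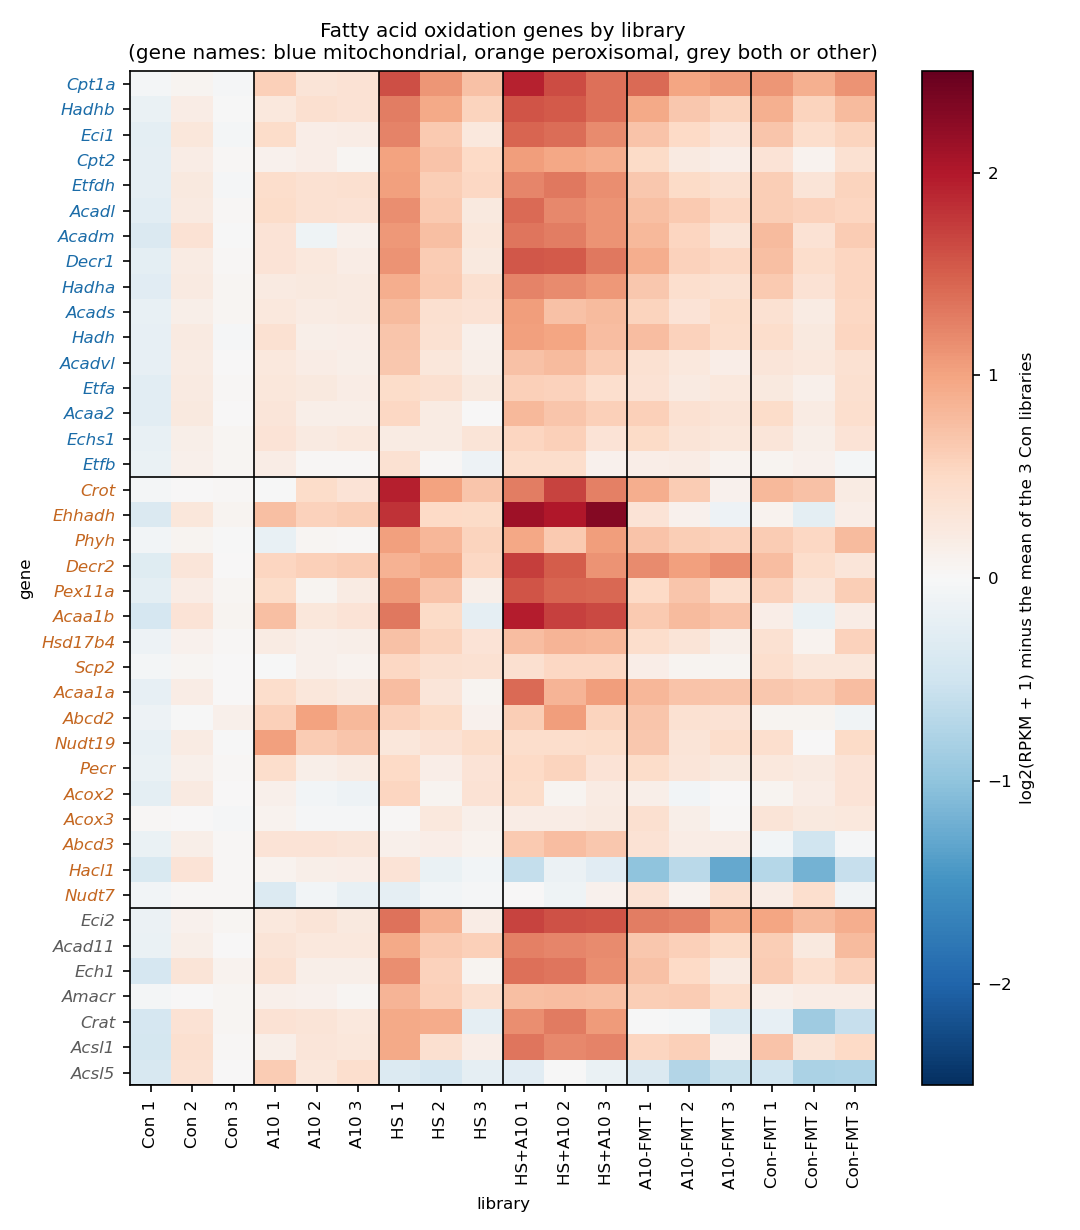
Each row is a member and each column a library, and colour gives log2(RPKM + 1) minus the mean of the 3 Con libraries (red higher, blue lower). Members are ordered within the mitochondrial, peroxisomal and mixed blocks by the difference between HS and Con, and most rows are reddest in the 3 HS+A10 libraries, while Hacl1 and Acsl5 turn blue in both recipient groups.

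Some markers of other cell types moved with this comparison too, where 15.9% of all tested genes were called higher and 1.87% lower. The 8 stellate cell and fibroblast markers summed to 74.3 to 85.9 RPKM in Con and 114 to 185 in HS. None was at 0 in all 3 libraries of either group, and 2 of 8 were called higher. The 6 erythroid markers summed to 1260 to 1970 in Con and 2890 to 10000 in HS, with 1 of 4 tested called higher. The 6 adipocyte markers summed to 7.47 to 8.88 in Con, where 4 were at 0 in all 3 libraries, and to 10.3 to 21 in HS. Of 2 tested adipocyte markers 1 (Fabp4) was called higher. Of 6 tested endothelial markers 1 (Pecam1) was called higher, and of 12 hepatocyte markers 4 were called higher and 1 lower. The part of these markers in the changes of the oxidation genes was not tested.

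Fatty acids are first activated to acyl-CoA. Acsl1, the main liver acyl-CoA synthetase, stood at 183, 331 and 257 RPKM in Con, 278, 308 and 306 in A10, 483, 328 and 281 in HS, 630.3, 576 and 592 in HS+A10, 362, 380.3 and 270.4 in A10-FMT, and 408, 313 and 355 for Con-FMT. HS+A10 exceeded HS in every library, with a difference of 0.76 (SE 0.21, adjusted p = 0.042), while HS and Con overlapped. Acsl5, a second synthetase of mitochondria and endoplasmic reticulum, was 76.4 to 87.4 RPKM in HS and 77.6 to 134.6 in Con, and 58.9 to 72.6 in Con-FMT. It was the one member called lower in HS+A10 than in A10, at -0.60 (SE 0.16, adjusted p = 0.0172), and it was also lower in A10-FMT than in Con at -0.55 (SE 0.16, adjusted p = 0.0357) and in Con-FMT than in Con at -0.69 (SE 0.16, adjusted p = 0.00617).

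Entry into mitochondria is set by the carnitine shuttle. Cpt1a, carnitine palmitoyltransferase of the outer membrane, stood at 39.9, 42.9 and 40.5 RPKM in Con, 62.2, 51.6 and 52.9 in A10, 128, 89.5 and 69.2 in HS, 159, 130.1 and 109 in HS+A10, 112, 82.8 and 87.4 in A10-FMT, and 89.0, 76.6 and 90.4 for Con-FMT. All HS libraries lay above all Con libraries, a difference of 1.15 (SE 0.19, adjusted p = 0.00127), or 2.23-fold, the largest of the mitochondrial members. The level stayed above Con in both recipient groups, at 1.16 (SE 0.19, adjusted p = 0.00109) in A10-FMT and 1.03 (SE 0.19, adjusted p = 0.000948) in Con-FMT. Cpt2, the inner-membrane partner, stood at 46.1, 61.4 and 55.3 RPKM in Con, 57.8, 60.4 and 56.0 in A10, 109, 88.7 and 76.2 in HS, 113, 107 and 102 in HS+A10, 75.2, 63.0 and 60.4 in A10-FMT, and 68.8, 57.6 and 70.3 for Con-FMT. It rose in HS by 0.73 (SE 0.13, adjusted p = 0.00248) and was lower than HS in both recipient groups, at -0.45 (SE 0.13, adjusted p = 0.0235) in A10-FMT and -0.46 (SE 0.13, adjusted p = 0.0188) in Con-FMT, with no overlap of libraries. Median scaling ended the call for A10-FMT.

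The 4 mitochondrial acyl-CoA dehydrogenases catalyse the first step for chains of decreasing length. Acadvl, for very long chains, stood at 126, 169 and 146 RPKM in Con, 176, 166 and 161 in A10, 234, 178 and 162 in HS, 245, 254 and 228 in HS+A10, 189, 175 and 164 in A10-FMT, and 181, 177 and 191 for Con-FMT. HS and Con overlapped through HS replicate 3, and the difference of 0.37 (SE 0.12, adjusted p = 0.0495) was just inside the threshold. Acadl, for long chains, stood at 55.6, 78.5 and 68.2 RPKM in Con, 92.7, 87.1 and 86.5 in A10, 149.8, 106 and 79.0 in HS, 179, 155 and 146 in HS+A10, 113, 105 and 96.6 in A10-FMT, and 103, 100.05 and 97.7 for Con-FMT. Every HS library lay above every Con library, though HS replicate 3 only just, and the difference was 0.68 (SE 0.17, adjusted p = 0.0155). Acadm, for medium chains, stood at 87.8, 145 and 112 RPKM in Con, 143, 105 and 123 in A10, 240.4, 191 and 137 in HS, 285, 273 and 245 in HS+A10, 197, 164 and 141 in A10-FMT, and 195, 145 and 174 for Con-FMT. The difference of 0.71 (SE 0.21, adjusted p = 0.0302) came with 1 HS library inside the Con range, and all HS+A10 libraries lay above all HS libraries at 0.53 (SE 0.21, adjusted p = 0.127), which did not pass the test. Acads, for short chains, stood at 52.1, 66.0 and 61.6 RPKM in Con, 71.3, 69.0 and 69.9 in A10, 104, 79.0 and 77.2 in HS, 124, 99.1 and 104 in HS+A10, 87.9, 75.4 and 82.5 in A10-FMT, and 78.0, 68.9 and 85.7 for Con-FMT, with a difference between HS and Con of 0.52 (SE 0.13, adjusted p = 0.0128). The calls of Acadvl, Acadl, Acadm and Acads in HS against Con ended under median scaling. Acad11, a further acyl-CoA dehydrogenase counted among the mixed members, stood at 61.2, 76.4 and 69.0 RPKM in Con, 86.1, 82.9 and 82.9 in A10, 133, 109 and 104 in HS, 166, 162 and 156 in HS+A10, 109.6, 104 and 95.5 in A10-FMT, and 106, 81.2 and 119 for Con-FMT. It was higher in HS than in Con by 0.74 (SE 0.13, adjusted p = 0.00182) and higher again in HS+A10 than in HS by 0.49 (SE 0.13, adjusted p = 0.0311), without overlap in either case.

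Electrons from these enzymes pass to electron transfer flavoprotein (Etfa and Etfb) and its ubiquinone oxidoreductase (Etfdh). Etfdh stood at 65.4, 91.0 and 75.2 RPKM in Con, 104, 99.95 and 101 in A10, 158, 118 and 109 in HS, 179.9, 193 and 171 in HS+A10, 123, 107 and 101 in A10-FMT, and 117, 95.6 and 113 for Con-FMT. It rose in HS by 0.72 (SE 0.14, adjusted p = 0.00388) and was higher in HS+A10 than in HS by 0.51 (SE 0.14, adjusted p = 0.0369). Etfa stood at 144, 202 and 175 RPKM in Con, 209, 203 and 196 in A10, 237, 228 and 203 in HS, 261, 257 and 229 in HS+A10, 222, 202 and 205 in A10-FMT, and 203, 188 and 229 for Con-FMT, a difference between HS and Con of 0.37 (SE 0.11, adjusted p = 0.034) that ended under median scaling. Etfb, which pairs with Etfa in 1 dimer, ranged from 237 to 362.5 RPKM over all libraries and was called in none of the 9 comparisons, with 0.10 (SE 0.12, adjusted p = 0.6) in HS against Con.

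The later mitochondrial steps for long chains are carried by the trifunctional protein. Hadha, its alpha subunit, stood at 56.1, 80.7 and 71.4 RPKM in Con, 80.9, 82.0 and 80.0 in A10, 130.1, 109 and 91.4 in HS, 163, 157 and 148 in HS+A10, 111, 92.5 and 89.5 in A10-FMT, and 109, 89.0 and 101 for Con-FMT. Hadhb, its beta subunit with thiolase activity, stood at 58.7, 75.5 and 65.7 RPKM in Con, 79.6, 87.5 and 85.2 in A10, 162, 129 and 98.5 in HS, 199, 194 and 174 in HS+A10, 129.6, 107 and 98.6 in A10-FMT, and 123, 97.6 and 115 for Con-FMT. The neighbouring genes moved together: HS exceeded Con in every library by 0.66 (SE 0.14, adjusted p = 0.0063) for Hadha and 0.93 (SE 0.15, adjusted p = 0.00158) for Hadhb, and HS+A10 exceeded HS in every library by 0.51 (SE 0.14, adjusted p = 0.038) and 0.57 (SE 0.15, adjusted p = 0.0401). The ratio of Hadhb to Hadha RPKM was 0.92 to 1.05 in Con, 1.08 to 1.25 in HS and 1.18 to 1.24 in HS+A10.

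Short and medium chains use soluble enzymes. Hadh, 3-hydroxyacyl-CoA dehydrogenase, stood at 122, 165 and 137 RPKM in Con, 183, 155 and 157 in A10, 228, 183 and 153 in HS, 286, 278 and 241 in HS+A10, 239, 211 and 189 in A10-FMT, and 190.2, 167 and 205 for Con-FMT. HS and Con overlapped at 0.40 (SE 0.15, adjusted p = 0.068), which did not pass the test, whereas HS+A10 lay above HS at 0.53 (SE 0.15, adjusted p = 0.0436). Acaa2, the mitochondrial thiolase, stood at 324, 461 and 391 RPKM in Con, 482, 430.2 and 428 in A10, 558, 451 and 391 in HS, 681, 626 and 588 in HS+A10, 587, 507 and 488 in A10-FMT, and 537, 450.1 and 523 for Con-FMT. Its difference between HS and Con was 0.25 (SE 0.14, adjusted p = 0.219) with overlapping libraries, and it was called in HS+A10 against A10 at 0.50 (SE 0.14, adjusted p = 0.0204). Echs1, the short-chain hydratase, ranged from 97.8 to 168.6 RPKM and was called only in A10-FMT against Con among the 9 comparisons, at 0.35 (SE 0.10, adjusted p = 0.023).

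Unsaturated acids need auxiliary enzymes that move or reduce double bonds. Eci1, the mitochondrial isomerase, stood at 52.7, 76.0 and 60.5 RPKM in Con, 86.3, 70.1 and 70.8 in A10, 148, 98.7 and 74.7 in HS, 174, 166 and 143 in HS+A10, 102, 88.4 and 78.9 in A10-FMT, and 101, 84.9 and 92.1 for Con-FMT, with HS replicate 3 inside the Con range and a difference between HS and Con of 0.72 (SE 0.20, adjusted p = 0.0225). Eci2, an isomerase of both compartments, stood at 60.5, 71.7 and 68.7 RPKM in Con, 80.2, 84.0 and 79.2 in A10, 172, 123 and 75.8 in HS, 217, 204 and 201 in HS+A10, 163, 158 and 129 in A10-FMT, and 133, 116 and 126 for Con-FMT. It was the mixed member with the largest difference between HS and Con, 0.80 (SE 0.20, adjusted p = 0.014), and remained above Con in A10-FMT at 1.15 (SE 0.20, adjusted p = 0.00163) and Con-FMT at 0.89 (SE 0.20, adjusted p = 0.00371). Decr1, the mitochondrial dienoyl-CoA reductase, stood at 35.6, 49.0 and 43.1 RPKM in Con, 53.5, 50.7 and 48.4 in A10, 93.0, 65.7 and 50.2 in HS, 125, 125 and 106 in HS+A10, 79.8, 63.5 and 60.7 in A10-FMT, and 71.3, 57.6 and 61.4 for Con-FMT. Its differences were 0.67 (SE 0.18, adjusted p = 0.0203) in HS against Con and 0.80 (SE 0.18, adjusted p = 0.0171) in HS+A10 against HS, without overlap. Median scaling ended the HS against Con calls of Eci1, Eci2 and Decr1. Ech1, a dienoyl-CoA isomerase, ranged from 138 to 485 RPKM and was called only in HS+A10 against A10, at 1.07 (SE 0.23, adjusted p = 0.00392).

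The peroxisomal dienoyl-CoA reductase is Decr2. It stood at 33.5, 51.8 and 42.1 RPKM in Con, 61.5, 63.4 and 65.5 in A10, 77.0, 81.6 and 60.2 in HS, 140.3, 120.5 and 91.8 in HS+A10, 95.4, 85.7 and 94.7 in A10-FMT, and 72.1, 56.9 and 52.0 for Con-FMT. HS exceeded Con by 0.78 (SE 0.17, adjusted p = 0.00838), HS+A10 exceeded HS by 0.67 (SE 0.17, adjusted p = 0.0303), and A10-FMT exceeded Con-FMT by 0.61 (SE 0.17, adjusted p = 0.0218). None of these pairs of groups overlapped. In A10-FMT against Con-FMT the difference for Decr1 was 0.09 (SE 0.18, adjusted p = 0.761). Whether these differences for Decr1 and Decr2 themselves differ was not tested.

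Fatty acids enter peroxisomes through ATP-driven transporters. Abcd3, the main liver transporter, stood at 94.4, 117 and 108 RPKM in Con, 135, 135 and 131 in A10, 115, 119.8 and 112 in HS, 167, 181 and 169 in HS+A10, 136, 122 and 120.3 in A10-FMT, and 101, 75.2 and 103 for Con-FMT. HS and Con overlapped at 0.12 (SE 0.11, adjusted p = 0.437), and HS+A10 lay above HS at 0.57 (SE 0.11, adjusted p = 0.00808), the one call in that comparison that held in every setting run. A10-FMT lay above Con-FMT at 0.44 (SE 0.11, adjusted p = 0.011), and Con-FMT lay below HS at -0.32 (SE 0.11, adjusted p = 0.0421), a call that ended under median scaling. Abcd2, its relative, was the one member below the filter, at 0.19 to 1.68 RPKM over all libraries. The branched-chain oxidases Acox2 and Acox3 ranged from 70.8 to 121.4 and from 8.43 to 11.8 RPKM. Acox2 was called in no comparison, and Acox3 only in Con-FMT against Con, at 0.28 (SE 0.09, adjusted p = 0.0236).

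The bifunctional enzymes perform hydration and the second dehydrogenation. Ehhadh, the form induced by PPAR alpha, stood at 45.1, 71.6 and 61.6 RPKM in Con, 99.3, 87.6 and 89.7 in A10, 208, 83.1 and 81.9 in HS, 256, 237 and 289.6 in HS+A10, 73.8, 63.0 and 53.1 in A10-FMT, and 62.5, 49.3 and 65.5 for Con-FMT. It was higher in HS than in Con by 0.93 (SE 0.27, adjusted p = 0.0303), a value led by HS replicate 1 at 208 RPKM against 81.9 and 83.1 in the others, and median scaling ended the call. It was higher still in HS+A10 than in HS by 1.20 (SE 0.27, adjusted p = 0.0188). In both recipient groups it was lower than HS, at -0.83 (SE 0.27, adjusted p = 0.0398) in A10-FMT and -0.93 (SE 0.27, adjusted p = 0.0231) in Con-FMT, and the differences from Con were 0.10 (SE 0.27, adjusted p = 0.851) and 0.01 (SE 0.27, adjusted p = 0.99). Median scaling ended the A10-FMT call. Hsd17b4, the constitutive form, stood at 108, 127 and 119.8 RPKM in Con, 136, 129 and 132 in A10, 196, 174 and 149 in HS, 201, 213 and 209 in HS+A10, 160.2, 148 and 131 in A10-FMT, and 153, 126 and 175 for Con-FMT. It rose in HS by 0.54 (SE 0.12, adjusted p = 0.00864) and was not called in either recipient group against HS, at -0.23 (SE 0.12, adjusted p = 0.164) and -0.19 (SE 0.12, adjusted p = 0.256).

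**Figure D2:**
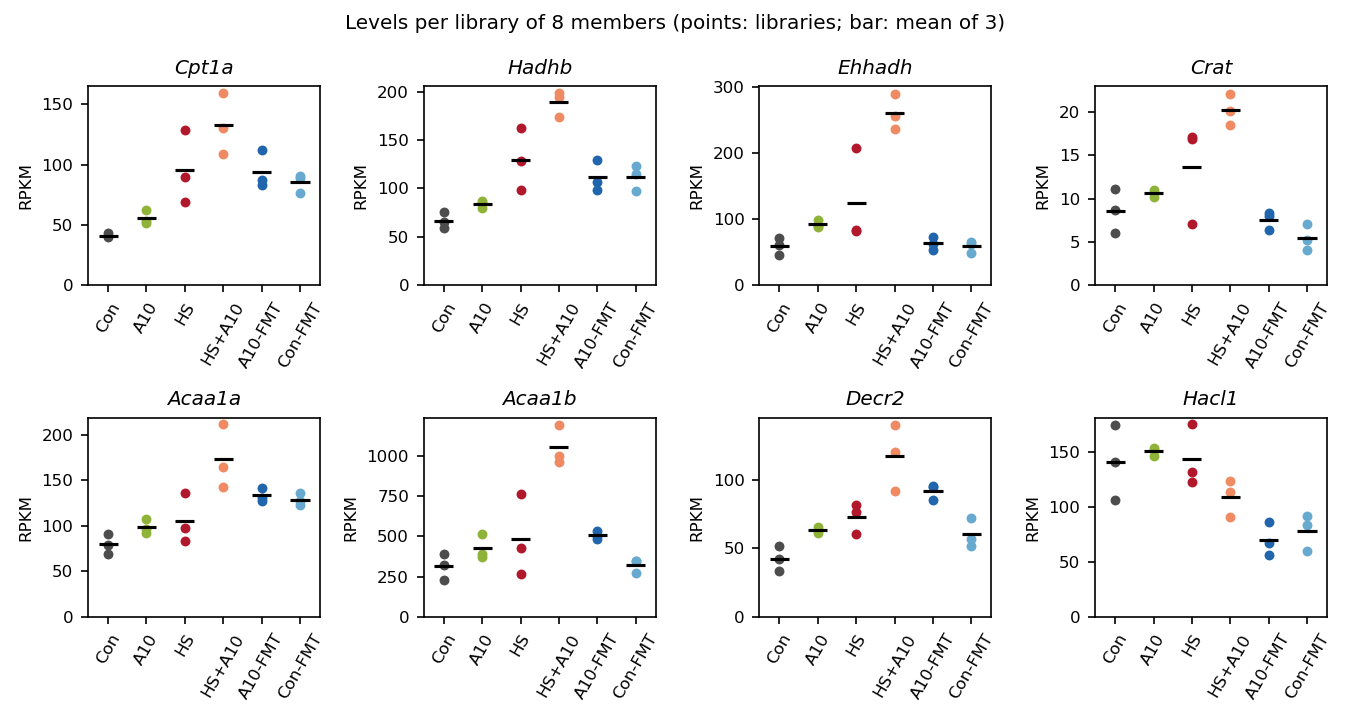
Each panel gives RPKM of 1 member in the 18 libraries (points) with the mean of 3 as a bar. Ehhadh falls from 81.9 to 208 in HS to 49.3 to 73.8 in both recipient groups, Cpt1a stays above its Con range of 39.9 to 42.9 in every other group, and Hacl1 is lower in both recipient groups than in Con and HS.

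Peroxisomal thiolysis uses 3 enzymes. Acaa1a, 3-ketoacyl-CoA thiolase A, stood at 68.9, 90.6 and 79.2 RPKM in Con, 108, 96.5 and 92.4 in A10, 137, 97.6 and 82.8 in HS, 212, 143 and 165 in HS+A10, 142, 131 and 128 in A10-FMT, and 127, 123 and 136 for Con-FMT. Acaa1b, its inducible paralog, stood at 229, 391 and 321 RPKM in Con, 513, 372 and 390.5 in A10, 765, 427 and 264 in HS, 1191, 1002 and 964 in HS+A10, 482, 532 and 504 in A10-FMT, and 346, 273 and 349 for Con-FMT. In both genes HS overlapped Con, at 0.38 (SE 0.16, adjusted p = 0.112) and 0.53 (SE 0.28, adjusted p = 0.194), while every HS+A10 library lay above every HS library, at 0.72 (SE 0.16, adjusted p = 0.0188) and 1.24 (SE 0.28, adjusted p = 0.0184). The ratio of Acaa1b to Acaa1a RPKM was 3.33 to 4.31 in Con, 3.86 to 4.77 in A10, 3.18 to 5.6 in HS, 5.62 to 7.02 in HS+A10, 3.39 to 4.07 in A10-FMT, and 2.21 to 2.72 for Con-FMT. The genes are close paralogs and their RefSeq starts lie 184201 bases apart on chromosome 9, so reads could be shared between them and the single values are uncertain. Acaa1a also overlaps Myd88 and Slc22a14 on the other strand, and strand handling was not stated. Scp2, the thiolase and carrier for branched chains, was the most abundant member, at 1478, 1589.7 and 1535 RPKM in Con, 1515, 1676 and 1625 in A10, 2191, 2018 and 1992 in HS, 2018, 2195 and 2205 in HS+A10, 1722, 1601 and 1605 in A10-FMT, and 2044, 1862 and 1871 for Con-FMT. It rose in HS by 0.43 (SE 0.08, adjusted p = 0.00292) and was lower in A10-FMT than in HS at -0.33 (SE 0.08, adjusted p = 0.00899), without overlap, and both calls ended under median scaling.

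Products leave peroxisomes as carnitine esters. Crot, carnitine octanoyltransferase, stood at 149.7, 157 and 158 RPKM in Con, 155, 212 and 196 in A10, 598, 312 and 251 in HS, 377, 502 and 373 in HS+A10, 293, 241 and 166 in A10-FMT, and 273, 257 and 179 for Con-FMT. It had the largest difference between HS and Con of all members, 1.21 (SE 0.27, adjusted p = 0.00894), with HS replicate 1 at 598 RPKM against 251 and 312 in the others. Crat, carnitine acetyltransferase of mitochondria and peroxisomes, stood at 6.02, 11.1 and 8.69 RPKM in Con, 11.0, 10.7 and 10.2 in A10, 17.1, 16.9 and 7.05 in HS, 20.1, 22.1 and 18.5 in HS+A10, 8.29, 8.03 and 6.43 in A10-FMT, and 7.10, 4.04 and 5.26 for Con-FMT. HS replicate 3 lay inside the Con range, and the difference of 0.56 (SE 0.26, adjusted p = 0.148) did not pass the test. Con-FMT was lower than HS at -1.12 (SE 0.26, adjusted p = 0.00724), and Con-FMT replicate 1 at 7.1 RPKM overlapped HS replicate 3 at 7.05.

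Branched acids pass through alpha-oxidation and a racemase. Phyh, which starts alpha-oxidation of phytanic acid, stood at 992, 1095 and 1037 RPKM in Con, 919, 1076 and 1056 in A10, 2115, 1842 and 1528 in HS, 2034, 1648 and 2138 in HS+A10, 1697, 1596 and 1549 in A10-FMT, and 1613, 1497 and 1796 for Con-FMT. It rose in HS by 0.80 (SE 0.12, adjusted p = 0.00109) and stayed above Con in A10-FMT by 0.63 (SE 0.12, adjusted p = 0.00402) and in Con-FMT by 0.65 (SE 0.12, adjusted p = 0.00153), without overlap. Hacl1, which catalyses the next step, stood at 106, 175 and 141 RPKM in Con, 147, 152 and 154 in A10, 175, 123 and 132 in HS, 90.5, 123 and 114 in HS+A10, 67.6, 86.2 and 56.2 in A10-FMT, and 83.3, 60.1 and 92.0 for Con-FMT. HS and Con overlapped at 0.04 (SE 0.20, adjusted p = 0.903), and both recipient groups were lower than HS, at -1.03 (SE 0.20, adjusted p = 0.00372) in A10-FMT and -0.87 (SE 0.20, adjusted p = 0.0072) in Con-FMT. Both were also lower than Con, at -0.99 (SE 0.20, adjusted p = 0.00549) and -0.83 (SE 0.20, adjusted p = 0.0079). Hacl1 overlaps Btd on the other strand. Amacr, the racemase that prepares branched acids for oxidation, stood at 85.7, 89.0 and 92.0 RPKM in Con, 96.9, 95.2 and 92.2 in A10, 160.2, 135 and 118 in HS, 149.9, 152 and 151 in HS+A10, 136, 139 and 120.4 in A10-FMT, and 96.9, 102 and 101 for Con-FMT. It rose in HS by 0.61 (SE 0.09, adjusted p = 0.000845), remained above Con in A10-FMT by 0.56 (SE 0.09, adjusted p = 0.00121), and in Con-FMT was lower than HS at -0.45 (SE 0.09, adjusted p = 0.00326). A10-FMT exceeded Con-FMT by 0.40 (SE 0.09, adjusted p = 0.00792), without overlap.

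The last members serve the peroxisome itself. Pex11a, a peroxisome division factor, stood at 22.1, 30.3 and 27.3 RPKM in Con, 36.7, 27.5 and 30.7 in A10, 56.2, 44.1 and 29.4 in HS, 80.0, 74.3 and 72.5 in HS+A10, 37.5, 43.4 and 35.4 in A10-FMT, and 39.9, 32.6 and 41.0 for Con-FMT. HS replicate 3 lay inside the Con range and the difference was 0.65 (SE 0.18, adjusted p = 0.0267), which ended under median scaling, while HS+A10 exceeded HS without overlap by 0.84 (SE 0.18, adjusted p = 0.0164). Pecr, an enoyl-CoA reductase, stood at 154, 189 and 176 RPKM in Con, 233, 191 and 198 in A10, 242, 192 and 219 in HS, 244, 254 and 219.7 in HS+A10, 237, 213 and 205 in A10-FMT, and 208, 202 and 219 for Con-FMT, with a difference between HS and Con of 0.33 (SE 0.11, adjusted p = 0.0449) that also ended under median scaling. Nudt7, a CoA hydrolase, stood at 503, 537 and 535 RPKM in Con, 415, 499 and 462 in A10, 447, 500.4 and 514 in HS, 527, 485 and 568 in HS+A10, 671, 558 and 689 in A10-FMT, and 598, 702 and 491 for Con-FMT. It was the one member higher in A10-FMT than in HS, by 0.39 (SE 0.12, adjusted p = 0.0347). Nudt19, a second CoA hydrolase, ranged from 6.79 to 17.2 RPKM, with 12.75 to 17.2 in A10, which overlapped A10-FMT replicate 1 at 13.2, and A10 against Con gave 0.78 (SE 0.14, adjusted p = 0.0542), which did not pass the test.

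Mitochondrial and peroxisomal members were then compared as sets, each set holding helpers as well as enzymes of the cycle. In HS against Con, 12 of 16 mitochondrial and 8 of 16 tested peroxisomal members were called higher, where 15.9% of all tested genes were. The median changes were 0.66 and 0.41, against 0.14 over all tested genes. Median scaling left 5 mitochondrial and 4 peroxisomal members called higher. In HS+A10 against A10, 13 of 16 and 10 of 16 were called higher, where 13.6% of all tested genes were, with medians of 0.83 and 0.53. The mean log2(RPKM + 1) of the mitochondrial members minus that of the peroxisomal members was -0.25 to -0.18 in Con and -0.23 to -0.19 in A10. It was -0.18 to -0.06 in HS, -0.13 to 0.04 in HS+A10, -0.09 to 0.01 in A10-FMT, and between -0.01 and 0.01 for Con-FMT. All libraries of the 2 recipient groups and of HS+A10 thus lay above all Con libraries, and HS replicate 3 overlapped Con. The group means moved up by 0.11 in HS against Con and by 0.20 in HS+A10 against A10, where the pooled within-group SD of single libraries was 0.05. That SD pools unequal spreads, widest in HS+A10 (-0.13 to 0.04) and narrowest in Con-FMT (-0.01 to 0.01). Taking the median over members in place of the mean gave 0.44 and 0.29 for these comparisons. By the mean, with the mixed members counted by the list's own division, they were 0.06 and 0.13, and 0.06 is near that SD. The difference of A10-FMT from HS was 0.06 by the mean and -0.068 by the median, so its sign depends on that choice.

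**Figure D3:**
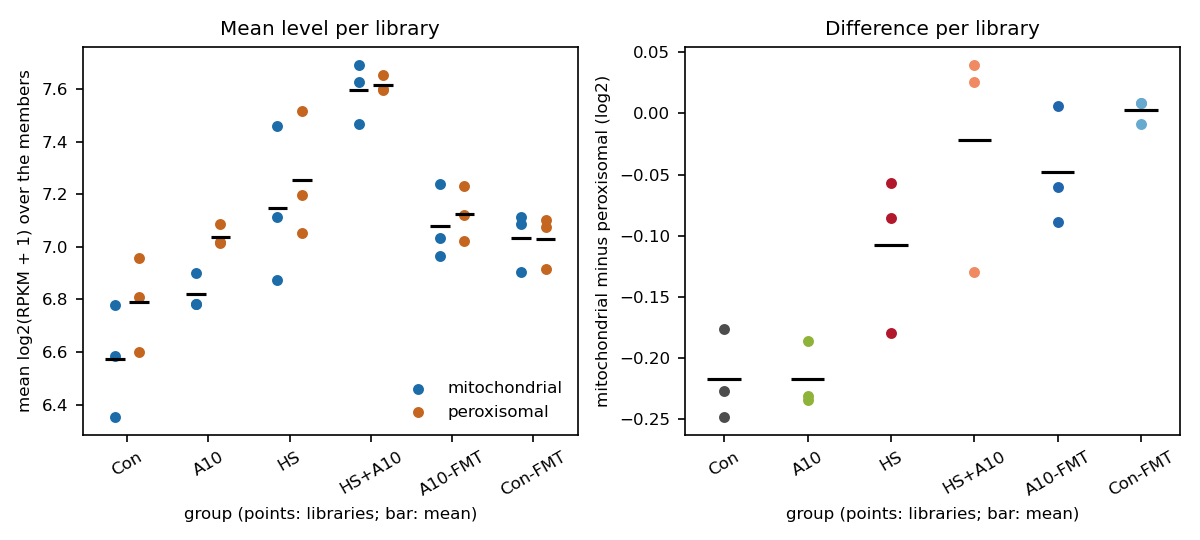
The left panel gives the mean log2(RPKM + 1) of the 16 mitochondrial and the 16 tested peroxisomal members in each library, with a bar at the mean of 3. The right panel gives their difference per library, which rises from -0.25 to -0.18 in Con to -0.01 to 0.01 in Con-FMT.

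The diet and STZ comparison was made a second time in AOS-dosed animals, in libraries not used for HS and Con. In HS+A10 against A10, 29 members were called higher and 1 lower, where 13.6% of all tested genes were called higher and 7.28% lower. The libraries did not overlap for 32 members higher and 3 lower, against 26.9% and 16.1% of all tested genes, and the median change was 0.83 against 0.04 over all tested genes. Median scaling left 29 called higher with 2 lower, and 26 were called without Con replicate 3 and A10 replicate 3. Of the 30 calls, 26 held in every setting run. Over the 39 members the changes in both comparisons gave Pearson's r = 0.833 and Spearman's rho = 0.849 as a description across genes, which share libraries within each comparison, against r = 0.683 over all tested genes. Of the members called higher, 21 were shared, or 91.3% of those in HS against Con and 72.4% of those in HS+A10 against A10. Etfa and Pecr were called only in the first, and Hadh, Acaa2, Acsl1, Acaa1a, Acaa1b, Crat, Ech1 and Abcd3 only in the second. The test of the difference between the comparisons, limma's interaction term, called 0 members, with 3 at an unadjusted p under 0.05 and a lowest adjusted p of 0.175, where 0.0098% of all tested genes were called. The change was larger in the AOS-dosed animals for 30 of 39 members. Endothelial markers moved with HS+A10 against A10 (5 of 6 tested called higher, sums of 55.7 to 67.1 against 38.8 to 49 RPKM), as did stellate cell and fibroblast markers (4 of 8 called higher, sums of 117 to 127 against 83.4 to 93.1) and adipocyte markers (1 of 2 tested called higher, sums of 21.1 to 24.8 against 8.08 to 10.4), and their part was not tested.

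**Figure D4:**
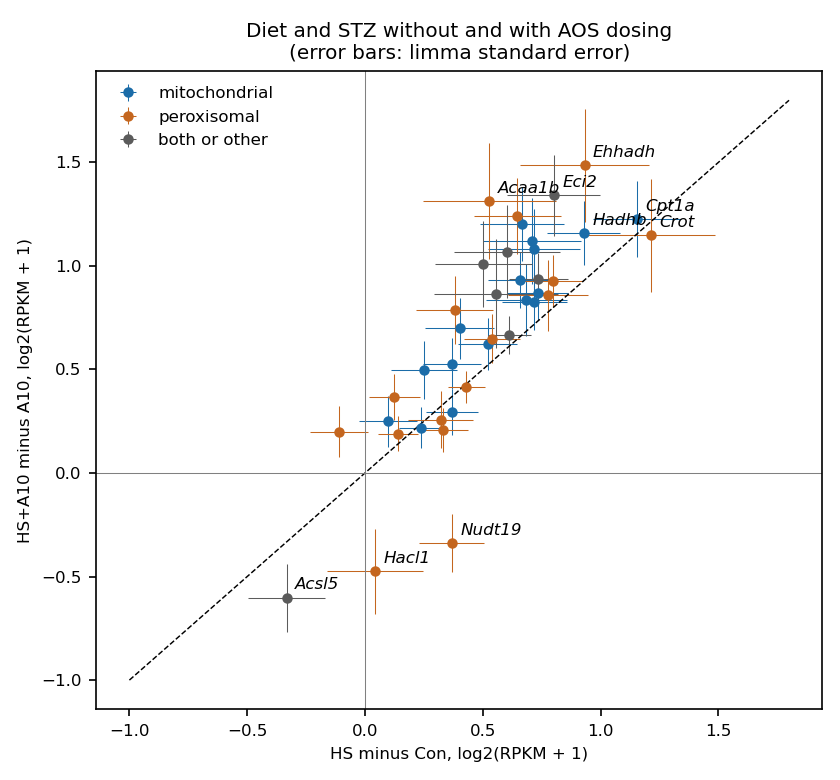
Each point is a tested member, placed by its log2(RPKM + 1) difference of HS from Con (horizontal) and of HS+A10 from A10 (vertical), with limma standard errors as bars and a dashed line of equality. Of the 39 points, 30 lie above the line, and Acsl5, Hacl1 and Nudt19 lie below 0 on the vertical axis, of which Acsl5 was called.

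AOS dosing of the diet and STZ animals went with further increases. In HS+A10 against HS, 14 members were called higher and 0 lower, where 2.95% of all tested genes were called higher and 4.37% lower. HS+A10 lay above HS without overlap for 19 members and below it for 0, against 11.6% and 15.7% of all tested genes. The called members were 5 mitochondrial (Hadha, Hadhb, Hadh, Decr1 and Etfdh), 6 peroxisomal (Ehhadh, Acaa1a, Acaa1b, Decr2, Abcd3 and Pex11a) and 3 mixed members (Acad11, Eci2 and Acsl1). The count depended on single libraries: it was 23 without HS replicate 1, 2 without HS replicate 2, 1 without HS replicate 3, and 1, 5 and 8 without HS+A10 replicates 1, 2 and 3. Median scaling gave 20 higher and 0 lower, and a fit of only the compared groups, with their own spread, called 1. Endothelial markers summed to 55.7 to 67.1 RPKM in HS+A10 and 43.5 to 48.5 in HS, with 1 of 6 tested (Pecam1) called higher, and adipocyte markers to 21.1 to 24.8 and 10.3 to 21, with 0 of 2 tested called, and their part was not tested. In animals without diet and STZ, A10 against Con called 0 members by limma, with 12 at an unadjusted p under 0.05, where 0.0686% of all tested genes were called. The changes were positive for 36 of 39, with a median of 0.25 against 0.07 over all tested genes, and A10 lay above Con without overlap for 16 members and below it for 1, against 19.6% and 5.27% of all tested genes.

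Clock genes moved with several of these comparisons. Dbp, a clock output factor, was 0.58 to 0.68 RPKM in Con, 0.36 to 3.41 in A10 and 1.17 to 2.22 in HS, but 47.3 to 97.5 in HS+A10, 48.8 to 98.8 in A10-FMT and from 51.8 to 55.5 for Con-FMT. Arntl, a core clock activator, ran the other way, at 8.84 to 13.4 RPKM in Con, A10 and HS and 0.7 to 4.92 in the other 3 groups. HS+A10 against HS had 8 of 15 tested clock genes higher and 5 lower, compared with 2 and 2 in HS against Con and 1 and 1 in A10-FMT against Con-FMT. The clock genes Nr1d1 and Nr1d2 also differed from Con in A10 and HS. Nr1d1 was 1.22 to 3.68 RPKM in Con, 10.03 to 30.7 in A10 and 17.17 to 26.96 in HS. Nr1d2 was 2.05 to 3.03, 6.39 to 10.41 and 8.18 to 8.88. Both were called higher in A10 and in HS against Con. The hour of collection was not given in the labels, so clock differences cannot be told apart from the treatments. This holds for HS or A10 against Con, and for any comparison that sets HS+A10 or a recipient group against Con, A10 or HS.

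Recipients of microbiota differed from HS in few members. In A10-FMT against HS, 1 member was called higher (Nudt7) and 4 lower (Cpt2, Ehhadh, Scp2 and Hacl1), where 2.09% of all tested genes were called higher and 21% lower. In Con-FMT against HS, 0 were called higher and 6 lower (Cpt2, Ehhadh, Abcd3, Crat, Amacr and Hacl1), where 4.61% were called higher and 19% lower. The shares of members called lower were thus below or near those of all tested genes. Without overlap, 3 members were higher and 4 lower in A10-FMT against 4.59% and 32.8% of all tested genes, and 0 were higher and 6 lower in Con-FMT against 7.11% and 27.9%. The all-gene medians were -0.16 and -0.12, and relative to them the member medians were 0.07 and -0.01. Median scaling gave 6 higher and 1 lower for A10-FMT and 1 higher and 5 lower for Con-FMT, so the direction of the A10-FMT split rests on the scaling. With HS replicate 1 also left out, median scaling gave 11 higher and 1 lower for A10-FMT and 3 higher and 0 lower for Con-FMT. The total for A10-FMT was 5, or 3 without HS replicate 2, 3 without A10-FMT replicate 2 and 2 without A10-FMT replicate 3, and that for Con-FMT was 6, or 3 without Con-FMT replicate 2. Of these calls, that of Hacl1 in A10-FMT held in every setting run, and 0 of the 6 in Con-FMT did. Both comparisons share the HS libraries, and a fit of only the compared groups, with their own spread, called 1 member in each. The 10 Kupffer cell and macrophage markers had 7 called lower in A10-FMT against HS and 0 in Con-FMT against HS. Of 6 tested endothelial markers 2 were lower for A10-FMT, whereas 1 was higher and 1 lower for Con-FMT. Of 4 tested erythroid markers 1 was lower in A10-FMT and 3 were lower for Con-FMT, and of 8 stellate cell and fibroblast markers 1 and 2 were lower. Of 12 hepatocyte markers 1 was higher and 3 lower for A10-FMT, and 2 were higher and 1 lower for Con-FMT. Of 3 tested cholangiocyte markers 1 and 0 were lower. The part of all these markers in these values was not tested.

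Against Con, 18 members were higher and 2 lower (Acsl5 and Hacl1) in A10-FMT, where 6.72% and 7.62% of all tested genes were, and 17 were higher and 2 lower, the same 2 genes, in Con-FMT, where 14.4% and 11.5% were. Without overlap, 27 members were higher and 1 lower in A10-FMT against 14.3% and 17.7% of all tested genes, and 22 were higher and 2 lower for Con-FMT against 22.5% and 16.8%. Without Con replicate 3 and A10 replicate 3 the totals called of 20 and 19 became 9 and 10, and they were 10 and 10 without Con replicate 1, 9 and 11 without Con replicate 3, and 10 each without A10-FMT replicate 1 and Con-FMT replicate 1. In A10-FMT against Con, 4 of 10 Kupffer cell and macrophage markers and 2 of 2 tested neutrophil markers were called lower. Con-FMT against Con had 0 and 0 of these. Its marker calls were all upward: 4 of 12 hepatocyte, 2 of 6 tested endothelial, 1 of 2 tested adipocyte and 1 of 8 stellate cell and fibroblast markers. Upward calls for A10-FMT were 2 hepatocyte markers, the endothelial Stab2 and the stellate cell marker Reln. Further downward calls for A10-FMT were 1 hepatocyte marker and the cholangiocyte marker Sox9. The part of all these markers was not tested. Between the recipient groups, 3 members were higher in A10-FMT (Decr2, Abcd3 and Amacr) and 0 lower, where 6.72% of all tested genes were called higher and 12% lower. The libraries did not overlap for 4 members higher and 1 lower in A10-FMT, against 12.1% and 19.4% of all tested genes. Of the 3 calls, 0 held in every setting run. None of the 16 mitochondrial members was called there, with changes from -0.06 to 0.18. The sum of pancreatic acinar markers was 25.8 to 20100 RPKM in Con-FMT and 32.2 to 37.7 in A10-FMT, and without Con-FMT replicate 3 and with median scaling 3 members were called higher and 0 lower. Of the markers of other cells, 2 of 2 tested neutrophil, 2 of 6 tested endothelial and 1 of 2 tested adipocyte markers were called lower in the same comparison. So were 4 of 12 hepatocyte and 1 of 3 tested cholangiocyte markers, and the part of all these was not tested. With RPKM scaled to equal sums none of the 3 members was called, and 1 other member was called lower.

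**Figure D5:**
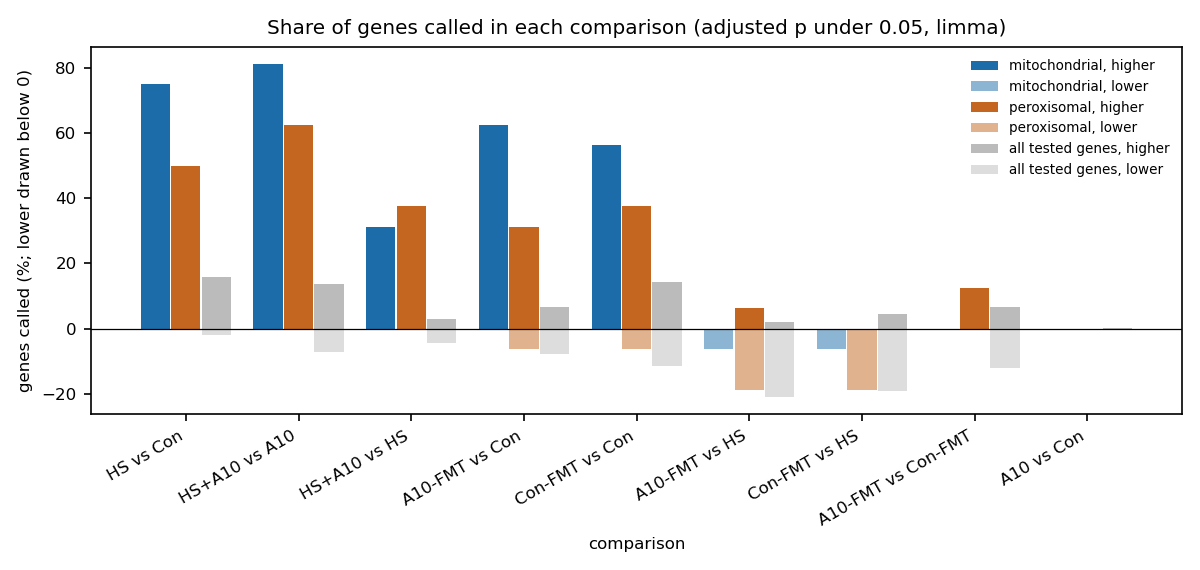
Bars give the percent of the 16 mitochondrial members, the 16 tested peroxisomal members and all 10204 tested genes called in each comparison, with genes called lower drawn below 0. Member bars stand well above the grey bars in the comparisons of HS with Con and of HS+A10 with A10, and lie below or near them in the comparisons of recipients with HS.

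Other genes of fatty acid handling were read from lists chosen with earlier results known. Of 20 tested PPAR alpha targets outside beta-oxidation, 16 were higher in HS than in Con and 0 lower. Of all tested genes 15.9% were called higher and 1.87% lower in that comparison. The leading genes were the fatty acid omega-hydroxylases Cyp4a10, at 5.2 (SE 0.80, adjusted p = 0.000964), and Cyp4a14, at 5.41 (SE 0.92, adjusted p = 0.0018), and the aldehyde dehydrogenase Aldh3a2, at 1.5 (SE 0.26, adjusted p = 0.00207). In this list 8 were higher in HS+A10 than in HS, where 2.95% of all tested genes were, led by the thioesterases Acot3 and Acot1 and by Ppara. Ppara differed by 1.07 (SE 0.21, adjusted p = 0.0106) there and by 0.24 (SE 0.21, adjusted p = 0.447) in HS against Con. In A10-FMT against HS 1 was higher and 4 lower, and in Con-FMT against HS 1 was higher and 6 lower, where 21% and 19% of all tested genes were called lower. Both included Cyp4a10, at -2.77 (SE 0.80, adjusted p = 0.0222) and -2.63 (SE 0.80, adjusted p = 0.026). The libraries overlapped in both: Cyp4a10 stood at 241, 182 and 35.55 RPKM in HS, against 48.15 in A10-FMT replicate 1 and 47.71 in Con-FMT replicate 1.

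Of 14 genes for carnitine and fatty acid supply, 7 were higher and 1 lower in HS than in Con, led by Slc27a2, a very long-chain synthetase and transporter, at 1.13 (SE 0.18, adjusted p = 0.00123), and Cd36, a fatty acid receptor, at 1.66 (SE 0.32, adjusted p = 0.0038). Of 14 tested other acyl-CoA oxidation enzymes, 8 were higher and 0 lower, led by Acad10 at 1.14 (SE 0.10, adjusted p = 9.55e-06). Of 22 genes of peroxisome biogenesis and matrix, 8 were higher and 0 lower, led by the import factor Pex3 at 0.42 (SE 0.10, adjusted p = 0.0102). The median of this list was 0.26, against a common shift of 0.14 over the whole table. For the same contrast, 15.9% of the whole table passed the test upward and 1.87% downward. Counts of these lists under median scaling are not given, so their dependence on the scaling is not known. In HS+A10 against HS the counts called higher were 4, 3 and 1 in these lists, with 0 lower in each. There 2.95% of all tested genes were called higher and 4.37% lower, and the peroxisome list with 1 call is near that share. In A10-FMT against HS the counts called lower were 3, 2 and 4, with 0 higher, and in Con-FMT against HS they were 5, 0 and 4, with 1 peroxisomal gene higher. In these comparisons 21% and 19% of all tested genes were called lower, and nothing particular to the lists is read from the counts.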

How the data were processed

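Liver mRNA was sequenced in 18 libraries of 6 groups. The authors deposited RPKM values rounded to 2 decimals, from oligo(dT)-selected RNA aligned with SOAPaligner per the study's methods, while the submitters' processing notes name Bowtie 0.12.2 and build mm10. Annotation, strand handling and depth are not given in the sources used here. RPKM is relative within a library, so a few abundant genes can shift all others.

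From these values log2(RPKM + 1) was computed, which understates the change of low genes. The 10204 of 19057 genes whose mean over all libraries reached 1 RPKM were fitted with limma 3.58.1 (R 4.3.3), with 1 mean per group, a variance trend and Benjamini-Hochberg adjustment over all tested genes. The fit was tested on simulated data. Other settings tried were 0.1 added in place of 1, every gene kept, only genes averaging 5 RPKM or more, median, quantile and equal-sum scaling, no trend, only the compared groups, a replicate block, and each library left out. All members could be named, with every library's value for members called in the comparisons of HS, HS+A10 and the recipients, and for Cpt1a, Acaa2, Acaa1a and Acaa1b. The members and gene lists were chosen with earlier results of these data known. Promoters were read from RefSeq on GRCm38, and 34 of 40 members matched. Sequences were read with Python 3.11.15 and pandas 2.3.3. The results of 1 further list of pathway genes are not reported here.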

Additional observations from a re-analysis of the deposited data

Results flagged for a closer look

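Between the recipient groups, 3 members differed by limma's test of A10-FMT against Con-FMT, which is the difference of their effects relative to the shared HS libraries. Decr2, the peroxisomal dienoyl-CoA reductase, was higher in A10-FMT by 0.61 on the log2 scale, Abcd3, the peroxisomal transporter, by 0.44, and Amacr, the racemase of branched acids, by 0.40. Each was higher in 3 of 3 A10-FMT libraries than in every Con-FMT library. Only 4 of the 39 tested members had groups that did not overlap in this direction, where 12.1% of all tested genes did, so the share of members is close to that of the table. With RPKM scaled to equal sums none of the 3 was called, and 0 members were called higher and 1 lower.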

How the results depend on the processing

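Depth is unknown and n was 3 per group, which limits the precision of every value. Of 120 calls over 9 comparisons, none reversed under the alternatives run. Calls lost were 19 under median scaling, 14 under quantile normalization, 21 with equal sums, 23 with no filter, 53 with only the compared groups, 8 with the replicate block and 0 with a pseudocount of 0.1, a mean of at least 5 RPKM or no trend. The cause was not tested.

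Counts of members called in HS against Con (23 as reported) were 12 with median scaling, 7 with only the compared groups, 6 without Con replicate 3 and with median scaling, 7 without HS replicate 1 and with median scaling, and 13 without Con replicate 3 and A10 replicate 3. In A10-FMT against HS (5) they were 3 with no filter, 2 with quantile normalization, 1 with only the compared groups and 12 without HS replicate 1 and with median scaling (11 higher and 1 lower, against 1 higher and 4 lower as reported). In Con-FMT against HS (6, all lower) they were 1 with only the compared groups, also lower, and 3 without HS replicate 1 and with median scaling, all higher. In A10-FMT against Con-FMT (3, all higher) equal sums gave 1, which was lower. In HS+A10 against HS (14) no filter gave 8, equal sums 8, only the compared groups 1, and omission of HS replicate 1 with median scaling 28. In A10 against Con (0) pseudocount 0.1, a mean of at least 5 RPKM, median scaling and quantile normalization gave 1 each. In A10-FMT against Con (20) equal sums gave 12 and omission of Con replicate 3 and A10 replicate 3 gave 9. In Con-FMT against Con (19) only the compared groups gave 10, omission of Con replicate 3 with median scaling 9, and omission of Con replicate 3 and A10 replicate 3 10. The interaction (0) had 5 without HS replicate 1 and with median scaling. The settings that omit 2 libraries, or 1 library together with scaling, were chosen after seeing the data.

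With each library left out in turn the counts ranged from 13 to 27 in HS against Con, 2 to 6 in A10-FMT against HS, 3 to 7 in Con-FMT against HS, 2 to 3 in A10-FMT against Con-FMT, 1 to 23 in HS+A10 against HS, 0 to 1 in A10 against Con, 26 to 28 in HS+A10 against A10, 9 to 21 in A10-FMT against Con, 10 to 28 in Con-FMT against Con and 0 to 0 in the interaction.

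The mitochondrial minus peroxisomal difference, taken as the median over members, was 0.44 in HS against Con, -0.068 in A10-FMT against HS, -0.19 in A10-FMT against Con-FMT, -0.028 in HS+A10 against HS, 0.13 in A10 against Con, 0.29 in HS+A10 against A10, 0.38 in A10-FMT against Con and 0.56 in Con-FMT against Con. With members of both compartments counted by the list's own division the mean-based difference was 0.06 in HS against Con and 0.13 in HS+A10 against A10. With single libraries left out the mean-based difference ranged from 0.08 to 0.15, 0.02 to 0.09, 0.07 to 0.14, -0.08 to -0.03, 0.050 to 0.14, -0.02 to 0.02, 0.17 to 0.25, 0.14 to 0.19 and 0.20 to 0.24, in the order HS against Con, A10-FMT and Con-FMT against HS, A10-FMT against Con-FMT, HS+A10 against HS, A10 against Con, HS+A10 against A10, and A10-FMT and Con-FMT against Con.

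Same-numbered libraries of different groups had deviations with a median correlation of 0.00669, against -0.0073 for other pairs. The correlation was above 0.1 in 12 of 45 same-numbered pairs and 11 of 90 other pairs. Of 18 libraries, 10 correlated best with a library of their own number. The main fit did not pair samples by number, and these values do not settle whether the numbers mark a pairing. With the replicate block 21, 5, 5, 3, 14, 0, 30, 17 and 19 members were called in the same order, and 0 in the interaction.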
